A study of Homo sapiens with 8 samples.

Results

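Replication-dependent histone genes encode the core histones H2A, H2B, H3 and H4 and the linker histone H1 that package newly copied DNA. The genes lie in clusters, many of them as H2A and H2B pairs that share a promoter region, and are transcribed mainly in S phase with the coactivator NPAT. Their mRNAs usually end in a conserved stem-loop, bound by SLBP, in place of a poly(A) tail, and are degraded when DNA replication stops. In both deposited tables, 89 of the rows have a symbol that starts with HIST1H, HIST2H, HIST3H or HIST4H. Leaving out 13 whose symbol marks a pseudogene and 17 below the level used here left 59 genes of 17994 tested and 57884 listed. That level is 1 FPKM or more (fragments per kilobase of transcript, scaled to the mapped fragments of the library) in at least 2 libraries. The 59 genes comprise 4 H1, 15 H2A, 18 H2B, 11 H3 and 11 H4 genes. Of these, 45 belong to the HIST1 cluster on chromosome 6, 11 to HIST2 and 2 to HIST3 on chromosome 1, and 1, HIST4H4, lies on chromosome 12.

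Total RNA was sequenced from hTERT-RPE1 cells, a telomerase-immortalised human retinal pigment epithelial line that was either wild type for ATF3, a stress-induced transcription factor, or labelled ATF3 knockout. Cells were harvested in complete medium or after 8 h in medium without serine and glycine that followed 2 days in complete medium and a wash with saline. Each of the 4 combinations has 2 libraries, 1 from each of 2 independent experiments run a week apart (batch 1 and batch 2), and each batch was deposited as its own table, normalized separately. The series asks how ATF3 regulates genes during serine deprivation. The labels do not state how the knockout was made, how many clones it rests on or whether poly(A) RNA was selected.

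The library sums of FPKM ran from 2429662 to 3148153, with 60.5% to 65.6% of each in small RNA genes, and relative depth read from the steps of low values spanned 1.00 to 1.27. ATF3 itself was not absent under the knockout label. Its FPKM in batch 1 was 3.47 and 6.46 in the wild-type libraries (complete, then serine/glycine-free medium) and 3.38 and 4.45 in those labelled knockout. In batch 2 the same order gave 3.65 and 18.0 in wild type and 20.8 and 57.3 under the knockout label. The labels do not say which part of ATF3 was altered, so its level does not check the label, and "labelled knockout" is used throughout. Of 9 retinal pigment epithelium markers 5 were below 1 FPKM in all libraries, and all 5 immune markers were. The summed FPKM of 8 simple epithelium markers was 222 to 358 in batch 1, 574 and 363 in wild type of batch 2, and 1199 and 983 in the batch 2 libraries labelled knockout. The summed FPKM of 8 mesenchymal markers was 1236 to 1765 in batch 1. It was 696 and 768 in wild type of batch 2, and 185 and 191 in the batch 2 libraries labelled knockout. In batch 2 most of that sum was VIM (598 and 638 in wild type, 118 and 102 under the knockout label). There CDH2, ZEB1 and TWIST1 were also lower under the knockout label in both media. FN1 differed little (44.5 and 58.7 against 38.3 and 56.7), and COL1A1 was 1.99 and 0.973 against 2.53 and 1.80. CDH1, the epithelial cadherin, was 0.201 to 1.15 in batch 1, 0.541 and 1.23 in wild type of batch 2 and 59.96 and 56.2 in the batch 2 libraries labelled knockout. Those last 2 libraries stand apart in both sums. Single markers also set all of batch 2, wild type included, apart from batch 1. KRT19, an epithelial keratin, was 0 to 0.741 in batch 1 and 216 to 375 in batch 2, and SPARC, a matrix protein, was 343 to 429 in batch 1 and 0.0903 to 1.66 in batch 2. The epithelial list did not move as 1. CLDN4, CLDN7 and EPCAM were also higher in every batch 2 library than in any of batch 1. KRT8 was 149 to 249 in batch 1 but 54.98 and 34.5 in wild type of batch 2. KRT18 was 49.8 to 90.9 in batch 1 and 47.2 and 39.7 in those 2 libraries. CDH1, as given above, and ESRP1 (0.315 and 0.156) were low in them. The median histone difference in each of the 5 comparisons of medium and label is given with and without the batch 2 libraries labelled knockout, except that of the wild-type response, which does not use them. The between-batch comparison of the label cannot be made without them, and single genes of related lists are given with them, beside their value in every library.

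The sequences around these genes show what the members share. A 16-base match to the stem-loop was found in the GENCODE 29 transcripts of 25 of the 59 genes (6 H2A, 11 H2B, 1 H3 and 7 H4 genes), in 5 forms. Capitals mark the 6-base arms of the stem and lower case the 4-base loop.
Form 1, in 13 genes including HIST1H2AE, HIST2H2BF and HIST3H2A: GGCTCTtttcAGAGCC
Form 2, in 5 genes including HIST1H4B, HIST1H4J and HIST4H4: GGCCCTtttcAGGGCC
Form 3, in 3 genes including HIST1H2BD: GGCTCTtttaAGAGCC
Form 4, in 2 genes, HIST1H4I and HIST2H4A: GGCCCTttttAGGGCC
Form 5, in 2 genes, HIST1H2AG and HIST2H2BC: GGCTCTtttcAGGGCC
Forms 2 and 4 came from H4 genes, and forms 1, 3 and 5 from H2A, H2B and H3 genes. A gene with no match has no such letters in its annotated transcript, and no more is drawn from it.

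RefSeq promoter sequences (GRCh38.p14, the 250 bases before the start site) could be matched by name for 43 of the 59 genes. They were searched on both strands for ATTTGCAT (the octamer bound by OCT1), for TATAAA (the letters of a TATA box), for CCAAT (the box bound by NF-Y) and for TGACGTCA (the CRE). Each was counted whether or not it overlapped another motif, and on either strand at any distance from the start site. A TATAAA match is thus not always a TATA box of that gene. Promoters of head-to-head genes overlap, so 1 site can be counted for both, as for HIST1H2BO and HIST1H2AM below. The octamer was in 17 of 43 promoters (39.5%) against 1.63% of all 34943 RefSeq promoters of the same length, and it was split by class, with 10 of 14 H2A and 7 of 10 H2B promoters and 0 of the H1, H3 and H4 promoters. TATAAA was in 29 (67.4% against 10.8%), CCAAT in 35 (81.4% against 32.0%) and the CRE in 6 (14.0% against 1.63%). CCAAT was present in every matched H1, H2A, H2B and H3 promoter and in 1 of 9 H4 promoters. The 5 promoters printed are those the results turn on, namely a pair of H1 genes that were each abundant in 1 batch alone, the overlapping promoters of a head-to-head H2B and H2A gene, and the H2B gene of the HIST3 cluster. Capitals mark the motif matches.
HIST1H1A, chr6:26017788-26018037, minus strand: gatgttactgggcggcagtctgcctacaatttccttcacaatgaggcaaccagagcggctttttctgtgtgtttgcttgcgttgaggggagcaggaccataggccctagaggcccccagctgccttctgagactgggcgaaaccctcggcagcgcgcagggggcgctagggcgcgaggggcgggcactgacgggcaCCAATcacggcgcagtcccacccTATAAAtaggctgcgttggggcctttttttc
HIST1H1D, chr6:26234988-26235237, minus strand: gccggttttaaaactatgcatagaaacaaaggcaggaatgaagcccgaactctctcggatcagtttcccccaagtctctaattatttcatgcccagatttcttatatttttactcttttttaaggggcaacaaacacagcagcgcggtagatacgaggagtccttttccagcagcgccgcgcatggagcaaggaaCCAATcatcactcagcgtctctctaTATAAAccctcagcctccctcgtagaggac
HIST1H2BO, chr6:27893175-27893424, plus strand: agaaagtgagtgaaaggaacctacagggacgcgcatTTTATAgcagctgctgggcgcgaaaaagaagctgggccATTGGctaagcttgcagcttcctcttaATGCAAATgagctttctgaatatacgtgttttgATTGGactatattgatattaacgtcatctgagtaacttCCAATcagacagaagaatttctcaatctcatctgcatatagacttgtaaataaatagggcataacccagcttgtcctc
HIST1H2AM, chr6:27893186-27893435, minus strand: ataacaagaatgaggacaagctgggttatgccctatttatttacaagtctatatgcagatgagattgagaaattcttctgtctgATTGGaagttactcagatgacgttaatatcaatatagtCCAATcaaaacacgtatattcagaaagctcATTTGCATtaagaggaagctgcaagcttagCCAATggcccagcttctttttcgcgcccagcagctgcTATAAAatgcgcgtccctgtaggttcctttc
HIST3H2BB, chr1:228457853-228458102, plus strand: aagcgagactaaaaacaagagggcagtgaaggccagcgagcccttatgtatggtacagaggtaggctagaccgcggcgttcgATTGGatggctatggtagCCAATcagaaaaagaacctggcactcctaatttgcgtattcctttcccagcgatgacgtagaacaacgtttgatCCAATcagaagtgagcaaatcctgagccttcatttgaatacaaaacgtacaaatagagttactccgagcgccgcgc

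Histone mRNAs were abundant in every library. Their summed FPKM in batch 1 was 24076 and 23187 in wild type (complete, then serine/glycine-free medium) and 24353 and 21197 under the knockout label, and in batch 2 it was 16992 and 21069.6 in wild type and 10349.8 and 16725 under the knockout label. As a share of the FPKM sum over protein-coding genes this was 5.30% to 6.31% in batch 1 and 2.95% to 5.43% in batch 2, with the lowest share in the batch 2 library labelled knockout in complete medium. Within batch 1 the 4 sums lie close together, and within batch 2 the sum was higher in serine/glycine-free medium under both genotype labels. By class, H2A genes contributed 24.3% to 28.8% of the sum, H2B genes 23.6% to 30.0%, H3 genes 15.4% to 21.3% and H1 genes 9.27% to 12.4%, with H4 genes making up the rest. The H2B and H3 shares were higher in every batch 2 library than in any batch 1 library.

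**Figure D1:**
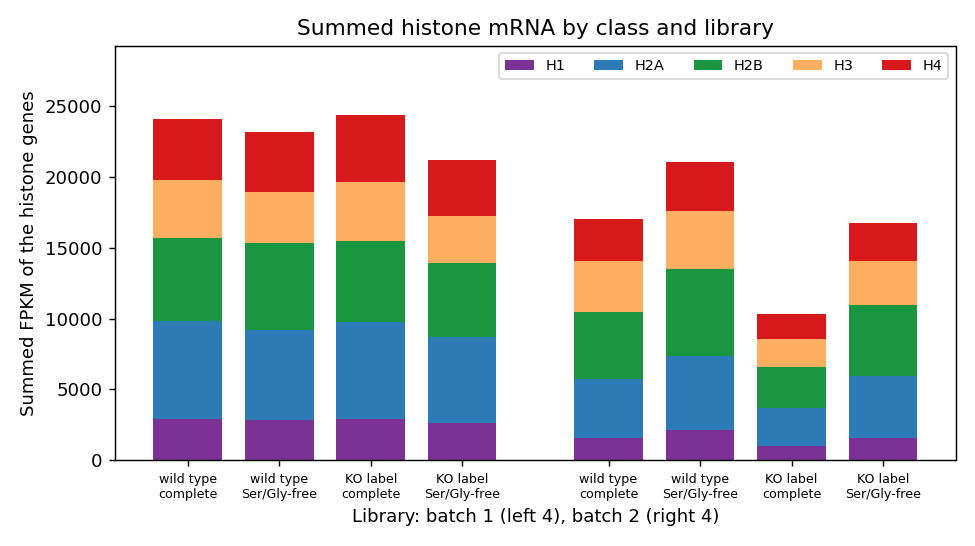
Stacked bars give the summed FPKM of the 59 histone genes per library (y axis, from 0), divided by histone class, for the 4 libraries of batch 1 and the 4 of batch 2. Batch 1 sums lie between 21197 and 24353, and the batch 2 library labelled knockout in complete medium is lowest at 10349.8. The tables of the 2 batches were normalized separately.

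Linker histones, which bind the DNA entering and leaving the nucleosome, came chiefly from HIST1H1C and HIST1H1E. HIST1H1C in batch 1 was 1459.8 and 1331 FPKM in wild type and 1321 and 1141 under the knockout label, and in batch 2 it was 650.0 and 878 in wild type and 462 and 704 under the knockout label (complete medium first in each pair, as in all lists below). HIST1H1E was 1157, 1306, 1245 and 1288 in batch 1 and 625, 949, 405 and 648 in batch 2, in the same order. Both genes were higher in every batch 1 library than in any batch 2 library, and HIST1H1C was lower in serine/glycine-free medium under both labels in batch 1 and higher under both in batch 2.

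H2A forms a dimer with H2B in the nucleosome. The most abundant H2A gene, HIST1H2AH, was 1998, 1466, 2037 and 1633 FPKM in batch 1 and 427, 421, 328 and 419 in batch 2. HIST2H2AC, the next H2A gene and the leading gene of the HIST2 cluster, was 1102, 1128, 955 and 869 in batch 1 and 519, 643, 372 and 568 in batch 2. HIST2H2AB, an H2A gene of the same cluster, was 691, 715, 790.0 and 762 in batch 1 and 327, 391, 224 and 296 in batch 2. All 3 were higher in every batch 1 library than in any batch 2 library, and within batch 2 all 3 were lowest in the library labelled knockout in complete medium. Of the H2B genes, HIST1H2BD was 1099, 1222, 1236 and 1156 in batch 1 and 728, 900.0, 473 and 648 in batch 2. HIST1H2BK was 986, 1263, 995 and 1073 in batch 1 and 447, 467, 292 and 471 in batch 2. Both H2B genes were lowest in the same library as the H2A genes.

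H3 and H4 form the tetramer at the centre of the nucleosome. HIST1H3B, an H3 gene and the most abundant of all 59, was 2001, 2159, 2109 and 1912 FPKM in batch 1 and 990.3, 1295, 503 and 748 in batch 2. HIST1H3H was 555, 431, 606 and 387 in batch 1 and 655, 937, 419 and 885 in batch 2, so that its batches overlap. The most abundant H4 genes were HIST1H4J, with 888, 1012, 1196 and 831 in batch 1 and 605, 795, 424 and 707 in batch 2, and HIST1H4B, with 998, 883, 953 and 758 in batch 1 and 686, 629, 356 and 495 in batch 2. HIST4H4, an H4 gene outside the large clusters, was 266, 182, 210.1 and 139 in batch 1 and 94.3, 105, 109.9 and 147 in batch 2. It went against the other genes named so far in being lowest in batch 2 in wild type and complete medium.

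The genes at the edge of the level rule were listed at 0 or near 1 FPKM in most libraries. HIST2H2BC, kept, was listed at 0, 1.19, 1.10 and 0 in batch 1 and 0, 1.31, 0 and 0.456 in batch 2, and HIST1H4D, kept, ranged from 0 to 2.47. HIST1H2AA, left out, reached 1 FPKM in 1 library (1.18), as did HIST1H2BA (3.38) and HIST1H2BI (1.80). By GENCODE 29, 4 of the 59 genes are typed as pseudogenes (HIST2H2BA, HIST2H2BB, HIST2H2BC and HIST2H3DP1), and 13 of the 59 share their locus with another listed gene, so that the authors' counting may have split reads between overlapping genes or between near-identical copies such as HIST2H4A and HIST2H4B. An exact 0 can be a failed estimate.

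The plainest pattern among the members was between batches. By a level rule chosen after the values were seen, 36 of the 59 genes reached 10 FPKM or more in each of the 8 libraries (background 25.7% of all genes tested). A further 10 were at 10 or more in all 4 libraries of batch 2 and under 2 in all 4 of batch 1 (background 0.55%), and 2 were the other way round (background 0.767%). The remaining 11 met none of these. The 36 had a median batch 2 minus batch 1 difference of -0.89 on the log2(FPKM + 1) scale, and 31 of them were lower in batch 2. The same median and count over all genes were not computed, so neither is read as particular to the histone genes. These counts describe levels from separately normalized tables and carry no test.

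The 10 genes high in batch 2 alone come from H1, H2A, H2B and H3 and from 3 clusters. They are HIST1H1D, HIST1H2AL, HIST1H2AM, HIST1H2BH, HIST1H2BO, HIST1H3F, HIST2H2BF, HIST2H3D, HIST3H2A and HIST3H2BB. Of these, HIST1H2AM and HIST2H2BF share their locus with other listed genes. Across all 10, batch 2 values ran from 32.0 to 559.6 FPKM, no batch 1 value exceeded 1.48, and 25 of the 40 batch 1 values were listed at 0. HIST2H2BF, an H2B gene, was 1.03, 0.643, 0 and 0.827 in batch 1 and 362, 559.6, 233 and 447 in batch 2. HIST3H2A was listed at 0 in all 4 libraries of batch 1 and at 65.5, 92.3, 59.8 and 135 in batch 2. HIST3H2BB was 0, 0.559, 0 and 0 in batch 1 and 76.9, 151, 48.2 and 145 in batch 2. Both HIST3 genes kept by the level of 1 FPKM were thus at or near 0 in batch 1 and present in every library of batch 2. They met that level through batch 2 alone, as did the rest of the 10 except HIST1H2BO. That gene was also at 1.14 (wild type, serine/glycine-free) and 1.09 (knockout label, complete) in batch 1. The HIST3 genes left out stayed low in both batches, with HIST3H2BA listed at 0 in every library and HIST3H3 at 0 to 0.692.

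Linker histone genes went both ways. HIST1H1D was 0, 0.186, 0 and 0.332 FPKM in batch 1 and 300.2, 344, 173 and 246 in batch 2. HIST1H1A was 317, 194, 339 and 194 in batch 1 and 0.353, 1.38, 0 and 0 in batch 2. Depending on the batch, each of these genes stood at 173 FPKM or more or at 1.38 or less, while HIST1H1C and HIST1H1E were at 405 or more in all libraries. HIST1H4I, an H4 gene, followed HIST1H1A. It shares its locus with HIST1H2BK in the deposited tables, and how reads were divided between them was not tested. The values of HIST1H4I were 192, 157, 199 and 134 in batch 1 and 1.30, 0.433, 1.31 and 1.38 in batch 2. These differences were shared by the wild-type and knockout-labelled libraries of batch 2, which differ from each other in CDH1 as given above and in VIM, the mesenchymal intermediate filament (598 and 638 FPKM in wild type, 118 and 102 under the knockout label). Some other markers moved with the batch under both labels, as these histone genes did. They include KRT19 and SPARC, with the values given above, and TWIST1, a mesenchymal transcription factor, at 0 to 0.153 in batch 1 and 5.39 to 12.8 in batch 2. The part of that difference between the batches in the histone levels was not tested.

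**Figure D2:**
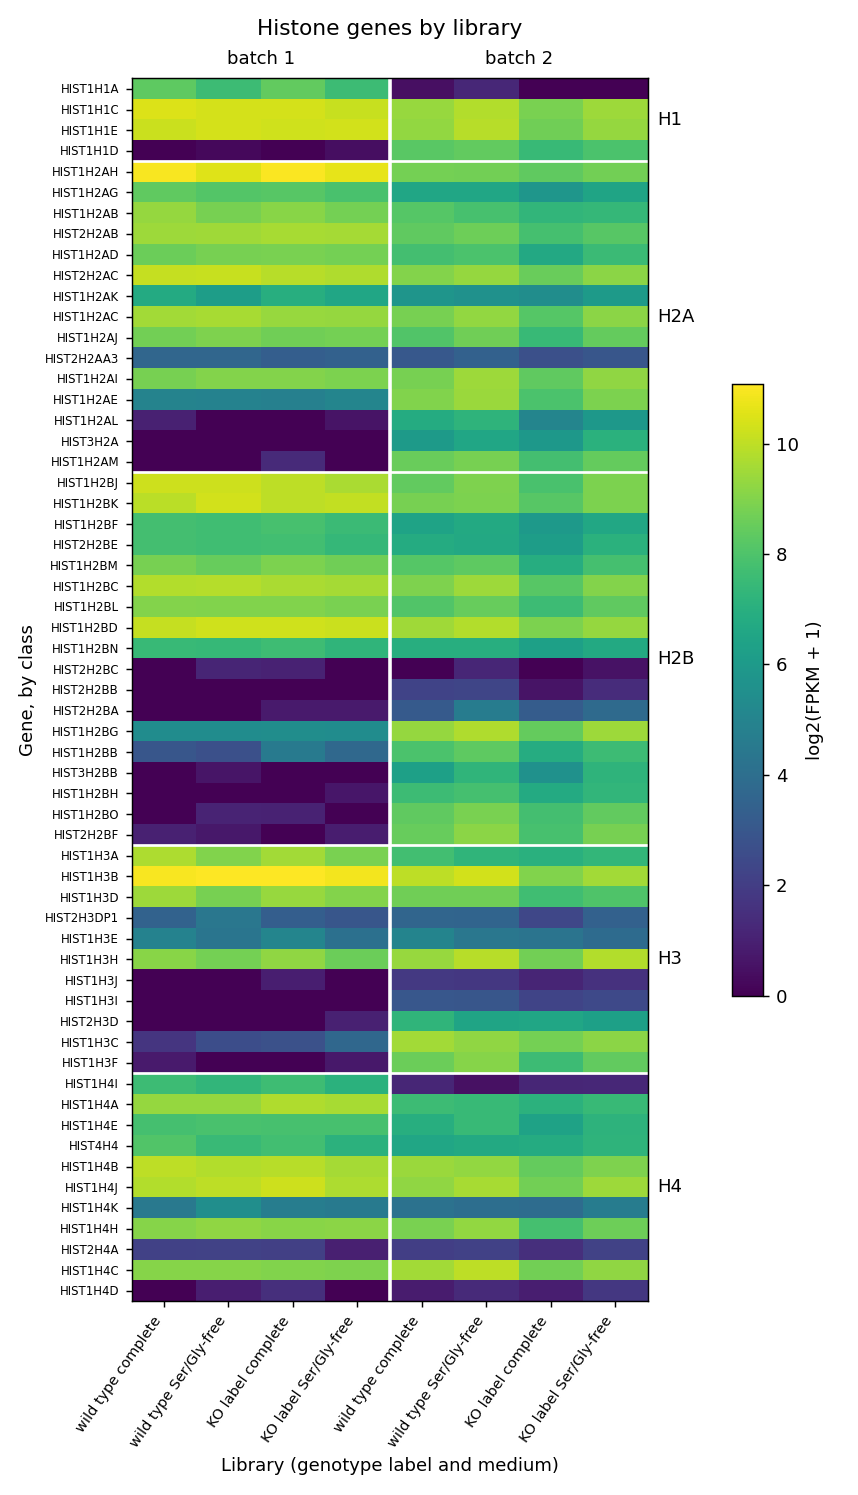
Heat map of log2(FPKM + 1) for the 59 histone genes (rows, by class and within a class by the batch difference) in the 8 libraries (columns, batch 1 left and batch 2 right of the white line). The 10 genes high in batch 2 alone appear as rows dark on the left and bright on the right, and HIST1H1A and HIST1H4I as the reverse, and within a batch the 4 columns look alike.

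Beyond the level rule, 15 genes were over 3 higher in batch 2 on the log2(FPKM + 1) scale and 2 were over 3 higher in batch 1. The share of all genes past that size was not counted. The 15 include HIST2H2BA (3.32), typed as a pseudogene, whose locus other listed genes share. Of the 15, 11 lie next to another of the 15 in the order of the members along the chromosome, a count for which no background was computed. HIST1H2BB and HIST1H3C are neighbours, with HIST1H3C at 2.23, 5.17, 5.75 and 11.9 FPKM in batch 1 and 753, 602, 439.5 and 569 in batch 2. HIST1H2BG and HIST1H2AE are neighbours, as are HIST1H1D, HIST1H3F and HIST1H2BH, HIST2H2BF and HIST2H3D, and the HIST3 pair. At the far end of the HIST1 cluster HIST1H2AL, HIST1H2AM and HIST1H2BO were over 3 higher, with HIST1H3I (2.68) and HIST1H3J (1.35) higher between them. The 6 HIST1 genes that border these runs were lower in batch 2, from HIST1H2AB, beside HIST1H2BB, at -1.33 to HIST1H3E, between HIST1H2AE and HIST1H1D, at -0.22. Bordering genes are by choice not over 3 higher, and HIST1H3I and HIST1H3J were counted with the runs. Since 31 of the 36 genes high in both batches were lower in batch 2, this count shows little about the edges of the runs.

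The head-to-head pairs were then compared. In GENCODE 29 the members form 11 pairs of a minus-strand gene and a plus-strand gene whose starts are 218 to 356 bases apart, and 10 of the 11 pairs had both genes in the same level class (8 high in both batches, 2 high in batch 2 alone). Since 36 of the 59 genes are high in both batches whether paired or not, the count of 8 shows little about pairing, and HIST1H2BO is in 2 of the 11 pairs. HIST1H2BG was 40.7, 41.3, 41.6 and 40.9 FPKM in batch 1 and 641, 869.6, 353 and 707 in batch 2. Its partner HIST1H2AE was 30.3, 28.7, 27.1 and 32.1 in batch 1 and 499, 675, 247 and 474 in batch 2. On the log2(FPKM + 1) scale the pair differed between batches by 3.86 and 3.87. The same difference was 6.403 for HIST3H2A and 6.43 for HIST3H2BB, and 8.06 for HIST1H2AM and 7.82 for HIST1H2BO, whose promoters are printed above. The exception was HIST1H3J (1.35) with HIST1H2BO (7.82). HIST1H3J shares its locus with HIST1H2AM in the deposited tables, and how reads were divided between them was not tested. The octamer was present in 5 of the 10 matched promoters of genes high in batch 2 alone and in 11 of 26 of genes high in both batches. A site shared by a pair was counted for both genes.

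**Figure D3:**
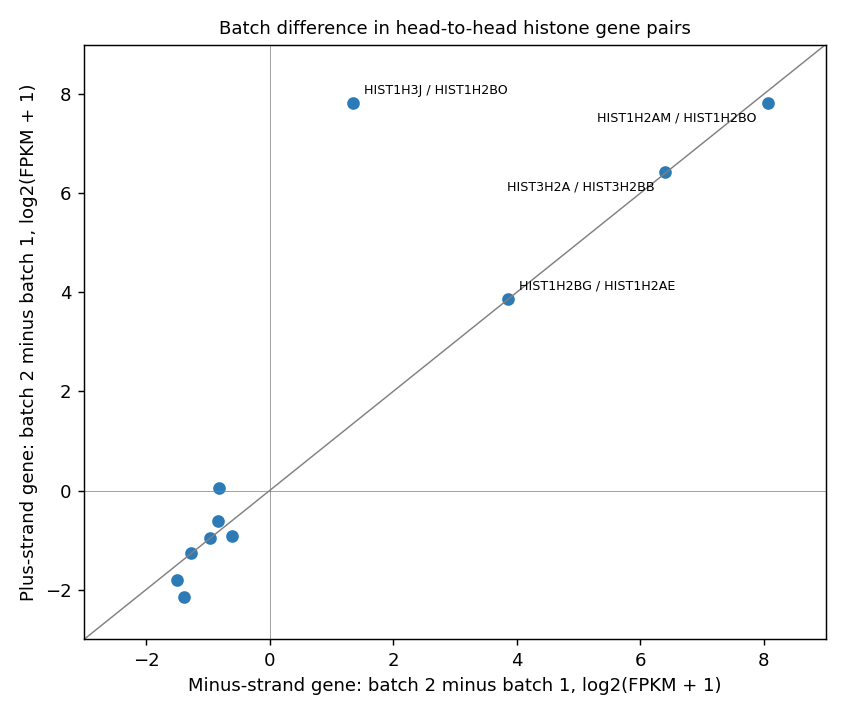
Batch 2 minus batch 1 difference of mean log2(FPKM + 1) for the minus-strand gene (x axis) and the plus-strand gene (y axis) of the 11 head-to-head histone gene pairs, with the line of equality. Each point is a pair, HIST1H2BO is in 2 of them, and all points except HIST1H3J with HIST1H2BO lie near the line.

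The first comparison set histone mRNA in wild-type cells after 8 h without serine and glycine against that in complete medium at 0 h. No histone gene passed limma's test (adjusted p under 0.05) in wild type, where 0.0556% of all 17994 genes did, and 1 of 59 had an unadjusted p under 0.05 (background 5.64%). The median log2 fold change was 0.16, with 41 genes higher and 18 lower. Over all 17994 genes it was 0.02, with 9501 higher. The 2 genes with the smallest p were HIST2H2BC, at 1.17 ± 0.43 (SE, adjusted p = 0.852), whose levels are near the threshold as given above, and HIST1H3A, an H3 gene, at -0.61 ± 0.25 (adjusted p = 0.889). HIST1H3A was 834, 503, 736 and 458 FPKM in batch 1 and 213, 151, 129 and 160.2 in batch 2, lower without serine and glycine in 3 of the 4 within-batch pairs. H2B genes had a median of 0.20 with 16 of 18 higher, and H3 genes one of -0.03 with 4 of 11 higher. The median over the 59 genes was 0.43 when the deprived wild-type library of batch 1 was left out and -0.12 when that of batch 2 was.

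The same comparison under the knockout label gave 0 of 59 genes past the adjusted threshold by limma (background 0.0167%) and 2 of 59 with an unadjusted p under 0.05, 1 higher and 1 lower (background 5.59%). The median was 0.24, with 46 genes higher and 13 lower. Over all 17994 genes it was 0.01, with 9129 higher. HIST2H2BF was at 0.90 ± 0.24 (adjusted p = 0.859), and HIST1H3E, an H3 gene, at -0.68 ± 0.26 (adjusted p = 0.892). The HIST2H2BF difference was 0.87 in batch 1, on values at or near 0, and 0.94 in batch 2. HIST1H3E was 28.8, 18.7, 32.3 and 16.1 FPKM in batch 1 and 30.7, 19.8, 18.1 and 13.5 in batch 2, lower without serine and glycine in all 4 within-batch pairs. Without the library labelled knockout in complete medium the median was 0.67 when that of batch 1 was left out and -0.18 when that of batch 2 was. Without both batch 2 libraries labelled knockout it was -0.14.

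The effect of the knockout label was compared in each medium. In complete medium 0 of 59 genes passed the adjusted threshold by limma (background 0.0333%) and 2, both lower, had an unadjusted p under 0.05 (background 4.78%). The median was -0.32, with 50 of 59 genes lower under the knockout label. Over all 17994 genes it was -0.02, with 9349 lower. The smallest p were those of HIST2H2BF, at -0.83 ± 0.24, and HIST1H2AL, an H2A gene, at -1.41 ± 0.52 (adjusted p = 0.857 for both). HIST1H2AL was 1.05, 0, 0 and 0.502 FPKM in batch 1 and 113, 149, 32.0 and 59.8 in batch 2. Its difference was -1.03 in batch 1, on values at or near 0, and -1.79 in batch 2. That of HIST2H2BF was -1.02 in batch 1, likewise on values at or near 0, and -0.63 in batch 2. Without the batch 1 library labelled knockout in complete medium the median over the 59 genes was -0.68, without that of batch 2 it was 0.09, and without both batch 2 libraries labelled knockout it was 0.08.

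In serine/glycine-free medium 0 of 59 genes passed the adjusted threshold by limma (background 0.05%) and 0 had an unadjusted p under 0.05 (background 5.86%). The median was -0.18, with 47 of 59 lower under the knockout label. Over all 17994 genes it was -0.04, with 9860 lower. HIST2H2BC was at -0.90 ± 0.43 and HIST2H3DP1 at -0.74 ± 0.40 (adjusted p = 0.801 for both), and both are typed as pseudogenes. HIST2H3DP1 was 10.02, 19.8, 8.86 and 6.90 FPKM in batch 1 and 11.3, 10.8, 4.05 and 10.01 in batch 2. Without the wild-type library of batch 2 in that medium the median was 0.04. Without both batch 2 libraries labelled knockout it was -0.16. The difference of the medium response between the genotype labels had 0 of 59 past the adjusted threshold by limma (background 0.0611%) and 0 with an unadjusted p under 0.05 (background 1.53%), with a median of 0.12. HIST2H2BC (-1.43 ± 0.61) and HIST2H2BF (0.74 ± 0.34) had the smallest p, both with an adjusted p of 1.00. That median was -0.30 without the batch 2 library labelled knockout in complete medium and -0.29 without both batch 2 libraries labelled knockout. It was also below 0 without the batch 2 serine/glycine-free library labelled knockout (-0.02) or the deprived wild-type library of batch 1 (-0.08). The HIST2H2BF estimate rests in part on batch 1 values at or near 0. Its response was -0.31 in wild type and 0.87 under the knockout label there, against 0.63 and 0.94 in batch 2.

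Within each batch the medium response was then taken gene by gene. Counted over genes at 1 FPKM or more in at least 1 of the 2 libraries, the wild-type medium response had a median of 0.01 in batch 1 (24 of 47 genes higher, background 50.7%) and 0.31 in batch 2 (42 of 59 higher, background 55.3%). Each background is the share of all genes counted in the same way. Under the knockout label the median was -0.27 in batch 1 (8 of 48 higher, background 48.4%) and 0.69 in batch 2 (55 of 57 higher, background 53.7%). H2B genes were higher in 17 of 18 cases in wild type of batch 2, whereas H3 genes were lower in 8 of 11. In batch 2 under the knockout label all 15 H2A, all 17 H2B and all 11 H4 genes counted were higher, as were all 3 H1 genes and 9 of 11 H3 genes.

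Agreement between the genotype labels within a batch followed the same split. In batch 1, 6 of 45 genes were higher in serine/glycine-free medium under both labels (background 31.7%) and 20 were lower (background 32.8%). In batch 2, 40 of 57 were higher under both (background 37.7%) and 2 were lower (background 27.8%). Across the batches, the wild-type response had the same direction in 20 genes higher (background 33.7%) and 10 lower (background 27%) of 47. The response under the knockout label had 7 higher (background 30.9%) and 1 lower (background 27.2%) of 46. HIST1H3E was the 1 gene in the last count that was lower in both batches.

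The median difference between genotype labels lay further from 0 in batch 2. In complete medium the median difference was 0.04 in batch 1 (28 of 49 genes higher under the knockout label, background 46.1%) and -0.65 in batch 2 (53 of 56 lower, background 51.8%). In serine/glycine-free medium it was -0.14 in batch 1 (35 of 46 lower, background 56.5%) and -0.30 in batch 2 (49 of 59 lower, background 52.5%). In batch 1, 8 of 45 genes were higher in both media (background 26.6%) and 17 lower (background 37%). In batch 2, 2 of 56 were higher in both (background 34.5%) and 46 lower (background 39.5%). Across the batches, the complete-medium difference was lower in both in 20 of 46 genes (background 29.1%) and higher in both in 1 (background 21.3%), and the serine/glycine-free difference was lower in both in 28 of 46 (background 31.3%) and higher in both in 1 (background 21.3%). The 2 batch 2 libraries labelled knockout are those with the raised epithelial and reduced mesenchymal marker sums given above, and the part of that difference in the histone levels was not tested. The batch 2 library labelled knockout in complete medium enters both the medium response under that label and the label difference in complete medium. In these bulk libraries fewer cells in S phase and less histone RNA per cell cannot be told apart.

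**Figure D4:**
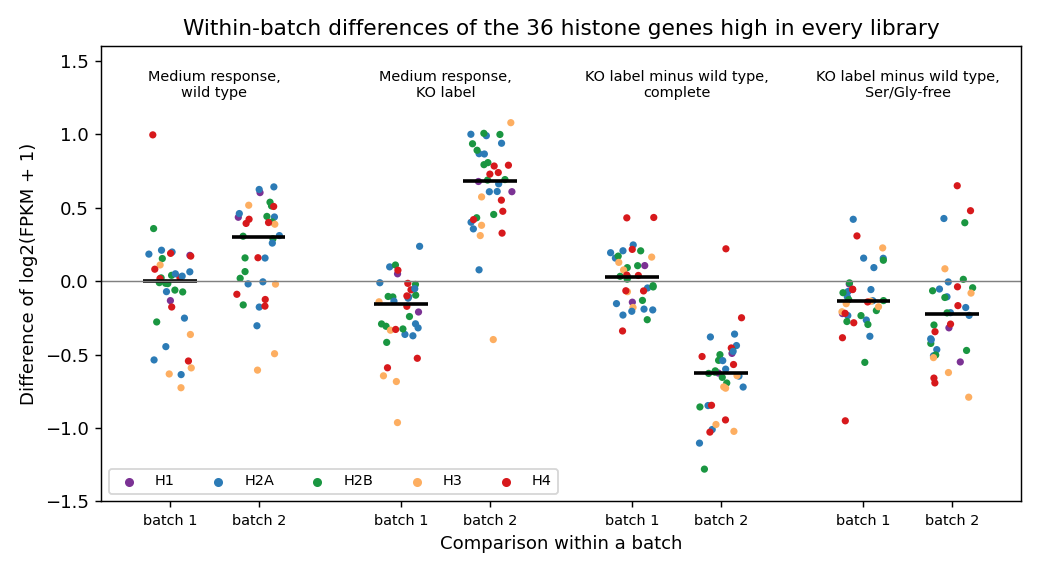
Within-batch differences of log2(FPKM + 1) (y axis) for the 36 histone genes that reached 10 FPKM in each library, 1 point a gene coloured by class, with the median as a bar, for the medium response under each genotype label and the label difference in each medium. The medium response under the knockout label lies mostly below 0 in batch 1 and above 0 in batch 2, and the label difference in complete medium lies near 0 in batch 1 and below 0 in batch 2.

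A second limma fit tested the differences between batches, using only contrasts formed within a table. It takes the 2 media as replicates of the genotype label within a batch and the 2 labels as replicates of the medium, so its p-values measure the spread between those libraries. For the genotype label, 1 of 59 genes passed the adjusted threshold (background 2.99%) and 23 had an unadjusted p under 0.05, 22 of them lower in batch 2 than in batch 1 (background 25.1%). The share called is near the background, and the median was -0.42 against 0.02 over all genes. The gene called was HIST1H2BB, an H2B gene, at -2.21 ± 0.24 (adjusted p = 0.0355). It was 6.69 and 5.48 FPKM in wild type and 22.2 and 12.3 under the knockout label in batch 1, and 241 and 319.5 in wild type and 116 and 192 under the knockout label in batch 2. The knockout label thus went with higher values in both media of batch 1 and lower values in both of batch 2, on levels that themselves differed between the batches. Over 16 alternatives the estimate stayed between -2.48 and -1.93. The call was lost in 3 alternatives that keep all libraries, with an adjusted p of 0.0523 (pseudocount 0.1), 0.0570 (prior without a trend) and 0.122 (no filter). Leaving out any 1 library left 0 of 17994 genes called in this comparison, so those 8 fits could not have called HIST1H2BB or any other gene. The next smallest p was that of HIST1H4C, an H4 gene, at -0.67 ± 0.11 (adjusted p = 0.0642), with 532, 539, 509 and 488 FPKM in batch 1 and 751, 989.5, 417 and 612 in batch 2.

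For the medium, 0 of 59 genes passed the adjusted threshold by limma (background 0.106%), while 28 had an unadjusted p under 0.05, 27 of them higher in batch 2 than in batch 1 (background 10.7%). The median was 0.60 against 0.05 over all genes. A higher response in batch 2 was seen in 56 of 59 genes, against 9889 of all 17994. HIST4H4, at 0.86 ± 0.13 (adjusted p = 0.352), and HIST1H1C, at 0.69 ± 0.12 (adjusted p = 0.379), had the smallest p. Both were lower in serine/glycine-free than in complete medium in batch 1 and higher in batch 2 under both labels, as their values above show. All 15 H2A and all 18 H2B genes, 4 of 4 H1, 9 of 11 H3 and 10 of 11 H4 genes lay on the higher side.

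The genes that serve histone mRNA were described beside them. SLBP, which binds the stem-loop, was 50.6, 46.2, 49.3 and 43.1 FPKM in batch 1 and 26.6, 22.1, 28.9 and 26.3 in batch 2. It was lower without serine and glycine in all 4 within-batch pairs, at -0.19 ± 0.16 in wild type (limma adjusted p = 0.951). NPAT, the histone gene coactivator, was 7.25, 6.12, 8.11 and 6.53 in batch 1 and 7.18, 7.66, 7.09 and 6.04 in batch 2, so its batches overlap. Of 18 histone mRNA processing and transcription genes, 0 passed limma's adjusted threshold in any of the 7 comparisons. In the serine/glycine-free genotype comparison CPSF3, the endonuclease that cuts histone pre-mRNA, was at -0.67 ± 0.19 and LSM10, a subunit of the U7 particle, at -0.65 ± 0.21 (adjusted p = 0.801 for both), and 2 of the 18 had an unadjusted p under 0.05, both lower. CPSF3 was 30.2, 36.4, 19.4 and 20.5 FPKM in batch 1 and 28.0, 29.7, 23.6 and 20.2 in batch 2, lower under the knockout label in all 4 pairs. LSM10 was 6.33, 9.71, 5.62 and 5.35 in batch 1 and 6.57, 7.36, 4.97 and 4.75 in batch 2, likewise lower in all 4.

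Replication-independent histones, whose synthesis is not confined to S phase and which come mostly from polyadenylated mRNA, were counted as a second family. Of 11 tested, 0 passed in the 5 comparisons of medium and genotype label, and 1, H1F0 (a linker histone), passed in the between-batch comparison of the label at -0.71 ± 0.10 (limma adjusted p = 0.0486), where 2.99% of all genes did. That call and the others of this comparison below carry the limit given for HIST1H2BB, since 0 genes were called with any 1 library left out or with no filter. H1F0 was 141, 121, 151 and 129.5 FPKM in batch 1 and 135, 144, 87.9 and 94.3 in batch 2, where both libraries labelled knockout were below both wild-type libraries. H3F3B, which encodes the variant H3.3, was 911, 1184, 960.5 and 1428 in batch 1 and 1119, 1542, 779 and 1021 in batch 2, and its between-batch difference was -0.73 ± 0.12 (adjusted p = 0.0645). None of the 5 comparisons called a gene of the other lists either. In the between-batch comparison of the label 3 of 23 S phase genes were called, all lower, against the same 2.99% of all genes. RRM1, a subunit of ribonucleotide reductase, was at -0.92 ± 0.12 (adjusted p = 0.0437), with 59.0, 59.5, 56.0 and 53.0 FPKM in batch 1 and 64.8, 62.4, 29.9 and 30.8 in batch 2. MCM3 and MCM7, helicase subunits, were the other 2. TYMS, thymidylate synthase, was lower under the knockout label in both batches, at 32.3, 32.2, 13.5 and 10.5 in batch 1 and 30.7, 22.4, 11.7 and 10.8 in batch 2, with -1.26 ± 0.19 in complete medium (adjusted p = 0.832). The summed FPKM of the 23 S phase genes was 1433, 1295, 1339.9 and 1242 in batch 1 and 1019, 859, 745 and 665 in batch 2, lower without serine and glycine in all 4 pairs, whereas the histone sum was lower in both pairs of batch 1 and higher in both of batch 2. The part of S phase in the histone levels was not tested.

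Histone chaperones numbered 14, and 0 passed in any of the 7 comparisons by limma. CHAF1B, a subunit of the chromatin assembly factor CAF-1, was 6.78, 4.76, 8.87 and 5.85 FPKM in batch 1 and 8.72, 9.02, 4.48 and 3.84 in batch 2, with a between-batch difference of the label of -1.23 ± 0.21 (adjusted p = 0.0648). SSRP1, a subunit of the FACT complex, was 80.0, 84.1, 61.2 and 64.0 in batch 1 and 55.9, 58.3, 61.4 and 59.7 in batch 2, at 0.47 ± 0.11 in the same comparison (adjusted p = 0.0990). A last list held 10 RNAs that, like these histone mRNAs, end without a poly(A) tail. Their summed FPKM was 546381 to 582185 in batch 1 and 775197 to 812096 in batch 2, but the list did not move as 1. RN7SL1 was 150892 to 183422 in batch 1 and 225608 to 290498 in batch 2. RN7SL2 and RPPH1 were also higher in every batch 2 library. RMRP was lower in every one (105130 to 121141 in batch 1, 63546 to 81345 in batch 2). The batches overlapped for RN7SK, RNU11, RNU12, SCARNA2 and RNU4ATAC. TERC, the telomerase RNA, was 1.09, 1.20, 0 and 0 in batch 1 and 817, 806, 1323 and 1289.7 in batch 2, and it was the 1 gene of that list called in the between-batch comparison of the label (1.79 ± 0.12, adjusted p = 0.0192). RNU4ATAC, a spliceosomal RNA, was 1273, 1507, 524 and 453 in batch 1 and 2364, 1433, 1648 and 1991 in batch 2 (1.48 ± 0.38, adjusted p = 0.114). TERC thus shared with 10 of the histone genes a level at or near 0 in all of batch 1 and well above it in all of batch 2. No other RNA of that list did.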

How the data were processed

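The authors deposited 2 tables, 1 per batch, each with 57884 genes and 4 libraries. The headers name no unit, and the values were taken as FPKM, which the authors made from aligned reads with Cufflinks or Cuffdiff per the submitters' processing notes. Those notes also list TopHat and hg19, and give no versions or settings. The tables were normalized separately, so groups were compared within a batch. FPKM keeps no read totals, so no counting interval was computed. The loci of 8 genes differ between the tables, none of them a histone gene.

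The tested set required 1 FPKM or more in 2 libraries, and log2(FPKM + 1) was fitted with limma 3.58.1 in R 4.3.3 as 4 group means plus a batch block, with a trended prior. Its p-values are two-sided, with Benjamini-Hochberg adjustment over 17994 genes (3 residual degrees of freedom). Fold changes on this scale understate those of low genes. A second fit with batch-by-label and batch-by-medium terms compared the batches. By the series' design text libraries with 1 number come from 1 experiment, so the block pairs them. Their deviations from the group means had correlations of 0.650 to 0.775 in 12 pairs, where with 2 libraries a group those of batch 2 repeat those of batch 1. The p-values rest on 2 experiments. The steps were tested on simulated data.

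Members and lists were chosen with earlier results of these data known. Named by rule were the 2 most abundant genes of each class, the 1 or 2 of HIST2, HIST3 and HIST4, those called, the 2 with the smallest p per comparison, up to 2 per related list, SLBP, NPAT and ATF3. Other genes were named after their values were seen, as was the level rule for batches. Promoters came from RefSeq (GRCh38.p14) and transcripts and pair orientation from GENCODE 29, where the Ensembl IDs of 30 of the 59 genes were found and the others were matched by symbol.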

Additional observations from a re-analysis of the deposited data

Results flagged for a closer look

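HIST1H2BB differed between the batches in its genotype-label difference, by -2.21 on the log2(FPKM + 1) scale in the test of that difference. Among the 36 histone genes at 10 FPKM or more in all libraries, 8 had a medium response that was lower under both labels in batch 1 and higher under both in batch 2. They were HIST1H1C, HIST1H2BF, HIST1H2BJ, HIST1H2BL, HIST1H2BM, HIST1H2BN, HIST1H3H and HIST4H4, and 0 went the opposite way. A further count of 5 concerned the genotype-label difference, with HIST1H2AH, HIST1H2BM, HIST1H4A and HIST2H2AB higher under the knockout label in both media of batch 1 and lower in both of batch 2, and HIST4H4 the reverse. These 2 counts come from signs alone, and the difference was not tested as a count. The shares of all genes with the same sign patterns were not computed, so neither count is read as particular to the histone genes.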

How the results depend on the processing

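The number of histone genes called was 0 in the 5 comparisons of medium and label and in the between-batch comparison of the medium under all alternatives run for them. In the between-batch comparison of the label it was 1, and it became 0 with a pseudocount of 0.1, with no filter and with a prior without a trend, and 11 (of 40 tested) when FPKM had to reach 1 in all 8 libraries. That filter also raised the calls over all genes from 538 of 17994 to 1115 of 11157. Leaving out single libraries gave 0 to 0, with 0 of 17994 genes called in each such fit, as were 0 of 34233 with no filter, so these say nothing about the histone genes. HIST1H2BB had an adjusted p from 0.0523 to 0.280 where it was lost, with an estimate of -2.48 to -1.93 over all alternatives, and HIST1H4C reached 0.0231 with that stricter filter. Leaving out single libraries moved the median log2 fold change from -0.12 to 0.43 for the wild-type response, from -0.18 to 0.67 for the response under the knockout label, from -0.68 to 0.09 for the label in complete medium, from -0.44 to 0.043 for the label in serine/glycine-free medium and from -0.30 to 0.51 for the difference of responses, which was -0.29 without both batch 2 libraries labelled knockout. Why these moved was not tested, beyond the within-batch values in the results. No result was reversed past a threshold. Without the replicate block the wild-type median was 0.16 and the knockout-labelled one 0.24, and 0 histone genes were called, so the block changed no call. Scaling to the same sum over protein-coding genes and leaving out the 4 annotated pseudogenes were added after seeing the data, and the between-batch median of the medium was 0.56 under that scaling. Depth limits the genes near 1 FPKM, HIST2H2BC and HIST1H4D among them.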
